A study of Mus musculus with 32 samples.

Results

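The canonical Polycomb repressive complex 1 (PRC1) was described here through 7 genes, the chromobox genes Cbx2, Cbx6, Cbx7 and Cbx8 and the polyhomeotic genes Phc1, Phc2 and Phc3. They were picked as named subunits, with earlier results of these data known, from the 41388 Ensembl genes listed for each library. All 7 had counts in every one of the 24 RNA-seq libraries and passed the low-count filter in both cohorts. The libraries came from bone marrow stem and progenitor cells of C57BL/6 mice, sorted from pools of male and female animals. The gate for haematopoietic stem cells (HSC) took Lin- cKit+ Sca1+ cells that carried CD150 and lacked CD48, and the gate for multipotent progenitors (MPP) took Lin- cKit+ Sca1+ cells without CD150. The Vav cohort, from mice of 8 weeks, held Jarid2-KO HSC and MPP and control HSC and MPP, with 3 libraries in each group. All 4 of these groups are labelled with Vav-Cre, a recombinase driven by a promoter active across blood cells, and the control genotype is given as wild-type. The Mx1 cohort, from mice of 10 weeks sampled 2 months after pIpC, held Jak2V617F Jarid2KO (the double mutant), Jak2V617F and control HSC and MPP, with 2 libraries in each group. All 6 of these groups are labelled with Mx1-Cre, which pIpC switches on through the interferon response in blood and other tissues. For the Mx1 mice, the design text lists loss of Jarid2 without Jak2V617F in place of the Jak2V617F group, and the grouping follows the labels of the samples.

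PRC1 and PRC2 are the main Polycomb complexes. PRC2, of which Jarid2 is an accessory subunit, methylates histone H3 to give the mark H3K27me3, and canonical PRC1 reads that mark through the chromodomain of a Cbx subunit. The Phc subunits polymerise through their SAM domains and so join PRC1 particles into clusters on chromatin, while the Ring1 and Rnf2 subunits ubiquitinate histone H2A. The Cbx subunits take the same place in the complex, so that each particle carries one of them, and in mouse HSC Cbx7 is known as a promoter of self-renewal.

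Each Vav library held 10473535 to 27232379 counts and each Mx1 library 7852483 to 20724168. Jarid2, the targeted gene, was not lower in libraries labelled Jarid2-KO (103 ± 36.3 CPM in Vav Jarid2-KO HSC, against 93.9 ± 15.8 in control HSC, and 116 ± 11.7 in Jarid2-KO MPP, against 109 ± 17.2 in control MPP; CPM scales counts to the library total; mean ± SD, n = 3 each). In the Mx1 cohort Jarid2 stood at 68.3 and 169 CPM in double mutant HSC and 52.6 and 93.2 in double mutant MPP, against 51.5 to 69.1 in Jak2V617F and 45.6 to 68.0 in control libraries. Counts over all exons do not check a deletion of a few exons, so the genotypes rest on the labels. The 10 HSC marker genes summed to 2201.92 to 2725.83 CPM in the Vav libraries. In the Mx1 cohort they summed to 699 to 2416 CPM in double mutant, 110 to 260 CPM in Jak2V617F and 185 to 261 CPM in control libraries. Transcripts of 10 heart muscle genes took 0.263% to 4.61% of counts in Mx1 libraries and at most 0.0016% in any Vav library. No gene of the 12 marker lists was at 0 in every library of a cohort.

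In the build mm10 the 4 Cbx genes form 2 neighbouring pairs. Cbx2 (ENSMUSG00000025577, chromosome 11, 119022962 to 119031270, plus strand) and Cbx8 (ENSMUSG00000025578, chromosome 11, 119036305 to 119040969, minus strand) lie 5034 bases apart with their 3′ ends facing each other and no listed gene between them. Cbx6 (ENSMUSG00000089715, chromosome 15, 79823896 to 79834688) and Cbx7 (ENSMUSG00000053411, chromosome 15, 79915807 to 79971119) lie 81118 bases apart, both on the minus strand, again with no listed gene between. The Phc genes lie on separate chromosomes, Phc1 (ENSMUSG00000040669) on chromosome 6 at 122317731 to 122340561, Phc2 (ENSMUSG00000028796) on chromosome 4 at 128654702 to 128752881 and Phc3 (ENSMUSG00000037652) on chromosome 3 at 30899295 to 30969415. Cbx7 shares 100 exonic bases with Apobec3 on the other strand, an abundant gene with 1124 to 19518 counts per library. The use of strand in counting is not given in the sources used here, so reads in that stretch cannot be told apart. Cbx6 shares 563 exonic bases with Npcd, which had 0 counts in every library.

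Promoter windows from RefSeq (GRCm38.p6, 250 bases before to 50 after a start) matched 6 of the 7 genes, and Cbx2 is named here without one. The windows of Cbx6, Phc2 and Phc3 are shown because these are the 3 genes that passed the test in Jarid2-KO cells, and that of Phc1 because its level was the steadiest in the Vav cohort. Sequences run 5′ to 3′ on the gene's strand, and capitals mark every match, on either strand, to 5 motifs: an E-box (CACGTG), a GC box (GGGCGG), an NF-Y motif (CCAAT), a STAT motif (TTCNNNGAA) and a RUNX motif (TGTGGT).
Cbx6, chr15:79834284-79834583, minus strand: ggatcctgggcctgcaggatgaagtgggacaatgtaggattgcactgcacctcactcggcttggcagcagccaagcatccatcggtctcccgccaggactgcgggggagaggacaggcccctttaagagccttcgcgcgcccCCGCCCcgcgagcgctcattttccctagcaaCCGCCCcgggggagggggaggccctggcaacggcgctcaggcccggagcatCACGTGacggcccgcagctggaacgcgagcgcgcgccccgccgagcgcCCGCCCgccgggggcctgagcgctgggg
Phc2, chr4:128654452-128654751, plus strand: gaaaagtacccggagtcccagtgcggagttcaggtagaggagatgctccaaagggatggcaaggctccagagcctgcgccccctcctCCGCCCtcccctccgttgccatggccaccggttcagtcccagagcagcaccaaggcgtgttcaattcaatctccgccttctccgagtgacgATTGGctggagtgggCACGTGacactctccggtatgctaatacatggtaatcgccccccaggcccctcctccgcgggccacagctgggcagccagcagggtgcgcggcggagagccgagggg
Phc3, chr3:30969366-30969665, minus strand: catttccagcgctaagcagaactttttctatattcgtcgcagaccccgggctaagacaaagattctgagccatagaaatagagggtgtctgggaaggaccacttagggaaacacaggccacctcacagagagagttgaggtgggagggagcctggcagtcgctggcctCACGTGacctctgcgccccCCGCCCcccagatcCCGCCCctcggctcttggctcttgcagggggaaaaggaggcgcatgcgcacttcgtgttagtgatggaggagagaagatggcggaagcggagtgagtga
Phc1, chr6:122340178-122340477, minus strand: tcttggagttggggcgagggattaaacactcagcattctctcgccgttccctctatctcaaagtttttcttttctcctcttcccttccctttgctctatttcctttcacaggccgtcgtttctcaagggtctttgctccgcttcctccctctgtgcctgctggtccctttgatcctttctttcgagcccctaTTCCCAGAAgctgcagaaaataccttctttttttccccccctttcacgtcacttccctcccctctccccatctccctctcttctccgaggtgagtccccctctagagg
Each of the windows of Cbx6, Phc2 and Phc3 holds 1 E-box, a sequence that basic helix-loop-helix factors such as MYC can bind, and so does that of Cbx8, where it runs into a GC box. The windows of Cbx7 and Phc1 hold none, and neither do those of the other 2 Phc2 starts in RefSeq. Of 32851 mouse promoter windows, 7.15% hold this E-box, and of the 11378 windows with at least 15 CG dinucleotides 11.3% do. The window of Phc1 holds 9 CG dinucleotides and 52% G and C, against 31 and 71.7% in Cbx6, 19 and 64.3% in Phc2 and 15 and 58% in Phc3. For Phc2 the window printed is that of the start listed for the gene, and the 2 further starts have windows with 2 CG dinucleotides and 50% G and C and with 45 and 77%. The 1 match in the window of Phc1 is to the STAT motif, held by 8.3% of windows. GC boxes are held by 35.7%, NF-Y motifs by 37.4% and RUNX motifs by 16.8% of windows. A match is a run of letters, not a measured binding site, and no binding was measured here.

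Per kilobase of exon, Phc1 and Cbx6 were the most abundant of the 7 genes in every Vav group, and Cbx8 the least except in control MPP, where Cbx2 was. In Jarid2-KO HSC, Cbx6 led with 10.9 RPKM (CPM per kilobase of exon; 9.16 to 12.0 over 3 libraries) and overlapped Phc1 at 9.79 (9.36 to 10.1). In control HSC, Phc1 led with 9.38 RPKM (8.90 to 10.2), above Cbx6 at 7.06 (4.96 to 8.44) with no overlap. Control MPP kept that order, with Phc1 at 8.91 RPKM and Cbx6 at 6.84, then Phc3 at 4.05, Cbx7 at 2.82, Phc2 at 2.33, Cbx8 at 1.37 and Cbx2 at 1.09. From Cbx7 downwards the neighbours in that order overlapped over their libraries. Phc2, with 4.36 RPKM, stood above Phc3, with 2.58, in Jarid2-KO HSC, while in control HSC Phc2 stood at 1.93 RPKM and Phc3 at 3.69, and the 2 genes did not overlap in either group. In Jarid2-KO MPP all neighbours overlapped except Phc1 and the gene after it, Cbx7.

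The first comparison asked whether loss of Jarid2 moved these subunits in stem and progenitor cells. Averaged over HSC and MPP, Phc2 and Cbx6 rose and Phc3 fell in Jarid2-KO cells, while Cbx2, Cbx7, Cbx8 and Phc1 did not pass the test. The 3 of 7 that passed stand beside 11.7% of all 15818 genes tested (1854 genes, 1038 higher and 816 lower) in edgeR's quasi-likelihood test with Benjamini-Hochberg adjustment at 0.05. The median log2 fold change of the 7 genes was 0.68, and that of all genes was -0.00. No member passed within HSC, where 0.569% of genes did, or within MPP, where 0.948% did. These are bulk samples, in which fewer cells of a type and less RNA per cell cannot be told apart.

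**Figure D1:**
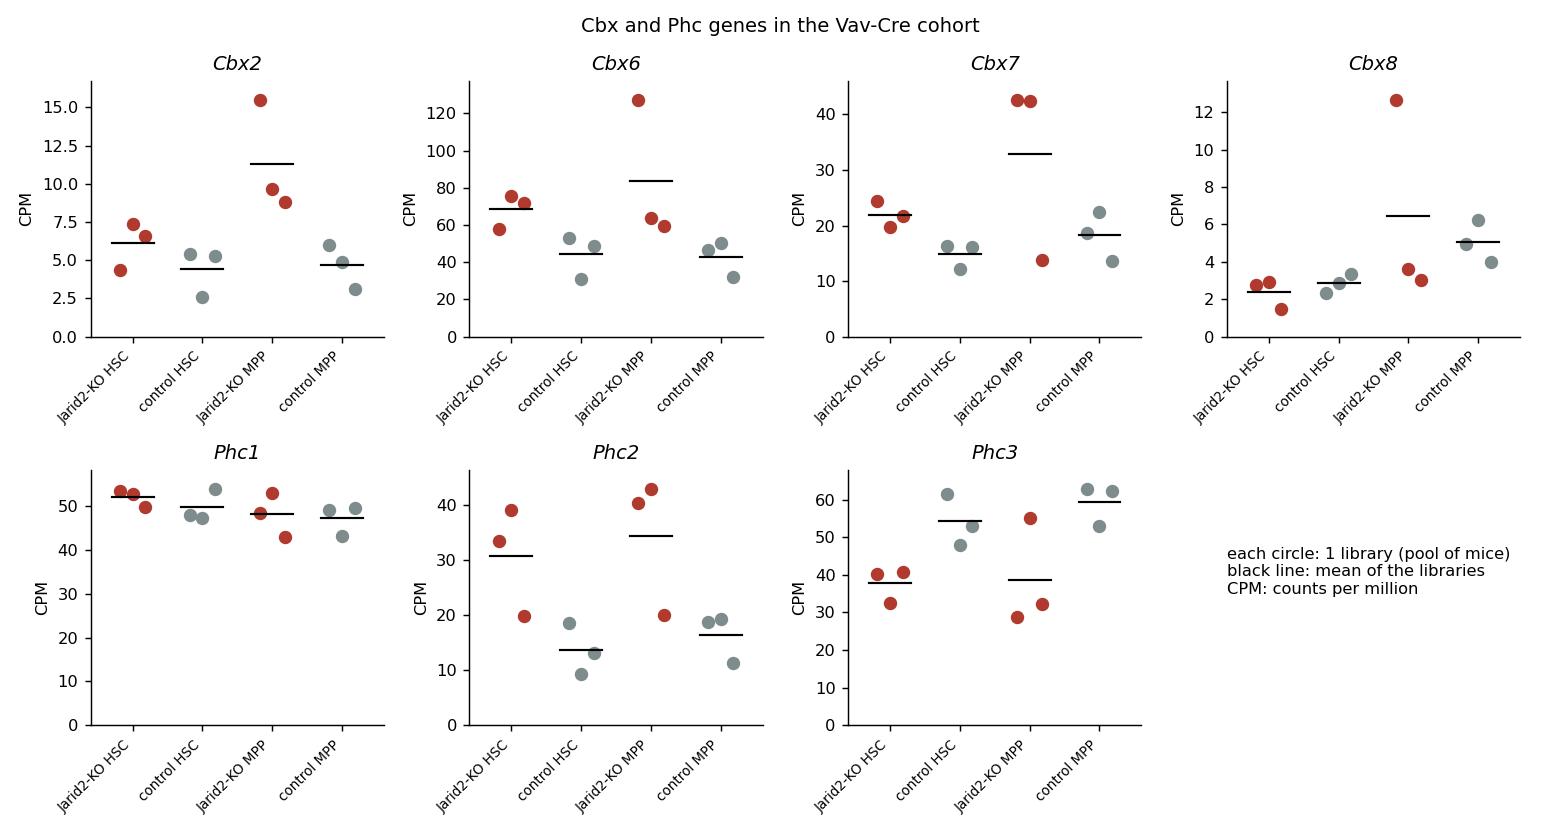
CPM (vertical axes, from 0, a separate scale for each gene) of the 7 genes in each library of the Vav cohort, with Jarid2-KO groups in red left of their controls in grey and a line at each group's mean of 3 libraries. The 6 Jarid2-KO libraries lie above the 6 control libraries for Cbx6 and Phc2, while Phc1 stays between 42.9 and 53.9 CPM in every library.

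Among the Cbx genes, Cbx6, the most abundant reader of the 4, showed the clearest difference. Its levels were 57.6, 75.7 and 71.9 CPM in Jarid2-KO HSC, against 53.1, 31.2 and 48.9 in control HSC. In Jarid2-KO MPP they were 127, 63.7 and 59.7 CPM, against 46.5, 50.5 and 32.1 in control MPP. All 6 Jarid2-KO libraries were above all 6 control libraries. The averaged log2 fold change was 0.77 (SE 0.21, 95% interval 0.33 to 1.22; edgeR adjusted p = 0.0324), and it was 0.57 (SE 0.29, adjusted p = 0.338) in HSC and 0.98 (SE 0.30, adjusted p = 0.108) in MPP. Jarid2-KO MPP library 1 held the highest value, and without it the averaged value was 0.54 (adjusted p = 0.0303). The call was lost without any 1 of 7 of the 12 libraries, namely control HSC 2 and 3, control MPP 1, 2 and 3 and Jarid2-KO HSC 2 and 3, with adjusted p between 0.0534 and 0.0965.

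Cbx2, which compacts chromatin besides reading its mark, was a low gene with a difference of similar size that missed the threshold. Levels were 4.33, 7.40 and 6.55 CPM in Jarid2-KO HSC, against 5.44, 2.62 and 5.29 in control HSC, and the groups overlapped. In Jarid2-KO MPP they were 15.5, 9.69 and 8.78 CPM, against 6.03, 4.86 and 3.09 in control MPP, without overlap. The log2 fold change was 1.30 in MPP (SE 0.39, edgeR adjusted p = 0.104) and 0.85 averaged (SE 0.27, adjusted p = 0.0550). Without Jarid2-KO MPP library 3 the averaged value passed, at 0.93 (adjusted p = 0.0336). Over the 12 edgeR fits that each left out 1 library, the averaged value of Cbx2 ran from 0.69 to 0.97 and its adjusted p from 0.0336 to 0.146.

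Cbx7, the member tied to self-renewal in mouse HSC, had 1 low library among the Jarid2-KO MPP. It stood at 24.4, 19.8 and 21.7 CPM in Jarid2-KO HSC, against 16.2, 12.3 and 16.2 in control HSC, with no overlap. In Jarid2-KO MPP it stood at 42.6, 42.5 and 13.7 CPM, against 18.7, 22.4 and 13.7 in control MPP, so that library 3 lay among the controls. The averaged log2 fold change of 0.68 (SE 0.24) did not pass in edgeR's test (adjusted p = 0.0776), and it was 0.86 (adjusted p = 0.00544) without Jarid2-KO MPP library 3. Over the 12 edgeR fits that each left out 1 library, the averaged value of Cbx7 ran from 0.55 to 0.86 and its adjusted p from 0.00544 to 0.179.

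Cbx8, the lowest member per kilobase in HSC and the neighbour of Cbx2, showed no shared shift. It stood at 2.74, 2.92 and 1.50 CPM in Jarid2-KO HSC, against 2.35, 2.85 and 3.34 in control HSC, and at 12.7, 3.62 and 3.06 CPM in Jarid2-KO MPP, against 4.94, 6.25 and 3.97 in control MPP. One library, Jarid2-KO MPP 1, held the high value, and the other 2 of its group lay below all 3 controls. The averaged log2 fold change was 0.04 with a 95% interval of -0.74 to 0.81 (edgeR adjusted p = 0.958), and without that library it was -0.46. At 27 to 202 counts per library, a difference within that interval was not detectable.

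Among the Phc genes, Phc2 rose, Phc3 fell and Phc1 stayed within a narrow range. Phc2 stood at 33.5, 39.1 and 19.8 CPM in Jarid2-KO HSC, against 18.5, 9.25 and 13.1 in control HSC. In Jarid2-KO MPP it stood at 40.4, 42.9 and 19.96 CPM, against 18.8, 19.3 and 11.4 in control MPP. All 6 Jarid2-KO libraries were above all 6 control libraries, though library 3 of each Jarid2-KO group (19.8 and 19.96) lay close to the highest control value of 19.3. The averaged log2 fold change was 1.10 (SE 0.25, 95% interval 0.57 to 1.63; edgeR adjusted p = 0.0174), with 1.12 in HSC (SE 0.35, adjusted p = 0.159) and 1.07 in MPP (SE 0.35, adjusted p = 0.129). Leaving out control MPP 3 or Jarid2-KO HSC 2 ended the call (adjusted p = 0.0574 and 0.0564), with log2 fold changes of 1.01 and 0.99.

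Phc3 stood at 40.2, 32.6 and 40.7 CPM in Jarid2-KO HSC, against 61.5, 48.1 and 53.0 in control HSC, without overlap. In Jarid2-KO MPP it stood at 28.7, 55.2 and 32.3 CPM, against 62.9, 53.0 and 62.4 in control MPP, and Jarid2-KO library 2 lay within the control range. The averaged log2 fold change was -0.61 (SE 0.16, 95% interval -0.96 to -0.26; edgeR adjusted p = 0.0317), with -0.59 in HSC (adjusted p = 0.225) and -0.63 in MPP (adjusted p = 0.164). The call was lost without any 1 of 9 libraries, the 6 controls and the 3 Jarid2-KO HSC libraries, with adjusted p from 0.0507 to 0.0964. Phc1, which mouse fetal liver HSC need, stood at 53.3, 52.7 and 49.6 CPM in Jarid2-KO HSC, against 48.0, 47.1 and 53.9 in control HSC. In Jarid2-KO MPP it stood at 48.4, 52.9 and 42.9 CPM, against 49.0, 43.1 and 49.5 in control MPP. Its averaged log2 fold change of 0.01 had a 95% interval of -0.25 to 0.27 (edgeR adjusted p = 0.963), which excludes a change as large as that of Phc2.

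**Figure D2:**
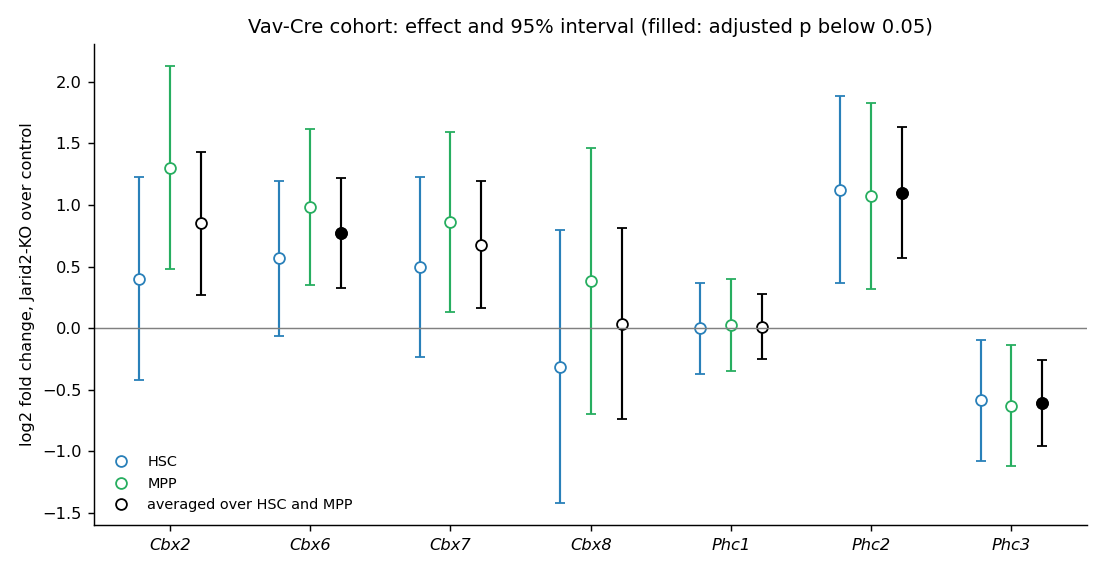
Log2 fold change of Jarid2-KO over control (vertical axis) for each gene in HSC (blue), in MPP (green) and averaged over both (black), with 95% intervals from the edgeR fit and filled points where adjusted p was below 0.05. Phc2 at 1.10, Cbx6 at 0.77 and Phc3 at -0.61 are filled for the average, and no point is filled for HSC or MPP alone.

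HSC and MPP libraries of 1 number may come from 1 pool of mice, and the average treats them as separate. When they were summed, which leaves 3 sums against 3 and was chosen after seeing the data, Phc2 (log2 1.05, edgeR adjusted p = 0.0459), Cbx6 (0.75, adjusted p = 0.0263) and Phc3 (-0.60, adjusted p = 0.0449) still passed. With the replicate number as a block, Phc2 and Cbx6 passed (edgeR adjusted p = 0.0128 and 0.0417) and Phc3 did not (-0.61, adjusted p = 0.0516). That block is shared by Jarid2-KO and control libraries of 1 number, so it does not stand for a pool of 1 genotype. The 9 granulocyte-monocyte markers summed to 1958 to 15142 CPM in Jarid2-KO libraries, against 626 to 4074 CPM in controls, and were higher in Jarid2-KO within MPP without overlap. The 7 macrophage and dendritic markers summed to 162 to 308 CPM in Jarid2-KO libraries, against 479 to 725 CPM in controls. MPP and lymphoid-primed markers summed to 281 to 392 CPM in Jarid2-KO MPP, against 633 to 747 CPM in control MPP. Jarid2-KO MPP library 1 held 1105 CPM of 8 immediate early genes, 528 CPM of stroma and endothelium markers and the least mitochondrial RNA (0.559% of counts). The part of these markers in the results was not tested. Over the 12 Vav libraries the granulocyte-monocyte sum ran with Cbx2 (Pearson's r = 0.83), Cbx6 (0.77), Cbx7 (0.77) and Phc2 (0.72) and against Phc3 (-0.42), values given as a description. Over the 12 Mx1 libraries the same sum ran against all of them (Cbx2 -0.55, Cbx6 -0.82, Cbx7 -0.74, Phc2 -0.64, Phc3 -0.68). The immediate early sum ran with Cbx2 (0.66), Cbx6 (0.78), Cbx7 (0.76) and Phc2 (0.68) and against Phc3 (-0.50) in the Vav libraries. In the Mx1 libraries the same values were 0.15, 0.23, 0.07 and 0.29, and 0.49 for Phc3. The macrophage and dendritic sum ran against Cbx2 (-0.46), Cbx6 (-0.62), Cbx7 (-0.38) and Phc2 (-0.58) and with Phc3 (0.67) in the Vav libraries. For that sum the Mx1 values were 0.22, 0.22, 0.19 and -0.04, and 0.24 for Phc3.

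Fold changes also differed by gene length. Phc3 has the longest exons of the 7 genes, 14670 bases, and among the 836 genes above 10000 bases the median log2 fold change was -0.30, with 12.1% called lower and 2.15% called higher. The 1657 genes of up to 1000 bases had a median of -0.31, and across all genes Spearman's rho with length was -0.02. Phc2 (7064 bases) and Cbx6 (6290 bases) fall in a class of 6000 to 8000 bases whose median was -0.06, with 5.16% called higher. By G and C content of the promoter window, 4.04% of genes between 40% and 50% were called higher and 9.97% lower, while above 70%, where the window of Cbx6 falls, these shares were 8.54% and 4.01%. Between 50% and 60%, the class of Phc3, 7.32% were called higher and 4.32% lower, with a median log2 fold change of 0.05. The part of either property in the members' values was not tested.

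The Jarid2-KO effect was not shown to differ between MPP and HSC for any member. The differences ranged from -0.05 for Phc2 (SE 0.49) to 0.90 for Cbx2 (SE 0.54), all with an edgeR adjusted p of 1.00. Of all genes, 0% passed in this comparison, with 419 at an unadjusted p under 0.05 and 7 called by DESeq2.

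The next comparison set MPP against HSC, to ask whether the subunits shift as stem cells become progenitors. No member passed. Averaged over genotypes, where 3.44% of genes passed, Cbx8 had the largest log2 fold change, 1.10 (SE 0.36, edgeR adjusted p = 0.139; 5.75 CPM in MPP, against 2.62 CPM in HSC), and DESeq2 called it (adjusted p = 0.0383). In control cells, where 1.17% of genes passed, the 3 MPP values of Cbx8 (3.97 to 6.25 CPM) lay above the 3 HSC values (2.35 to 3.34 CPM). In Jarid2-KO cells, where 0.525% of genes passed, Cbx8 stood at 3.06 to 12.7 CPM in MPP, against 1.50 to 2.92 CPM in HSC. Cbx2 did not overlap there either, with 8.78 to 15.5 CPM in MPP, against 4.33 to 7.40 CPM in HSC (log2 0.91, SE 0.38, edgeR adjusted p = 0.389). The other 5 genes had averaged differences from -0.11 for Phc1 to 0.41 for Cbx7.

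Within the Phc family, Phc2 took a larger share and Phc3 a smaller one in Jarid2-KO cells. Taken as a percent of the summed RPKM of the 3 Phc genes, Phc2 took 18.8% to 31.2% in Jarid2-KO HSC, against 9.71% to 16.5% in control HSC, and 21.5% to 34.0% in Jarid2-KO MPP, against 10.6% to 18.9% in control MPP. Phc3 took 12.5% to 18.5% in Jarid2-KO HSC, against 23.1% to 26.4% in control HSC, and 11.6% to 19.0% in Jarid2-KO MPP, against 24.9% to 27.9% in control MPP. Neither share overlapped between genotypes within a cell type. The summed Phc RPKM overlapped, at 14.9 to 17.7 in Jarid2-KO HSC, against 13.5 to 15.9 in control HSC, and at 13.1 to 19.8 in Jarid2-KO MPP, against 14.5 to 16.2 in control MPP. The summed Cbx RPKM was 16.3 ± 1.50 in Jarid2-KO HSC, against 11.2 ± 2.55 in control HSC, and 22.8 ± 9.99 in Jarid2-KO MPP, against 12.1 ± 2.76 in control MPP (SD, n = 3 each). Cbx6 held most of it in every Vav library, 50.8% to 68.4%, and its shares overlapped between genotypes. Cbx8 took 4.94% to 10.2% in Jarid2-KO MPP, against 10.3% to 12.0% in control MPP. These shares are descriptions and were not tested.

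**Figure D3:**
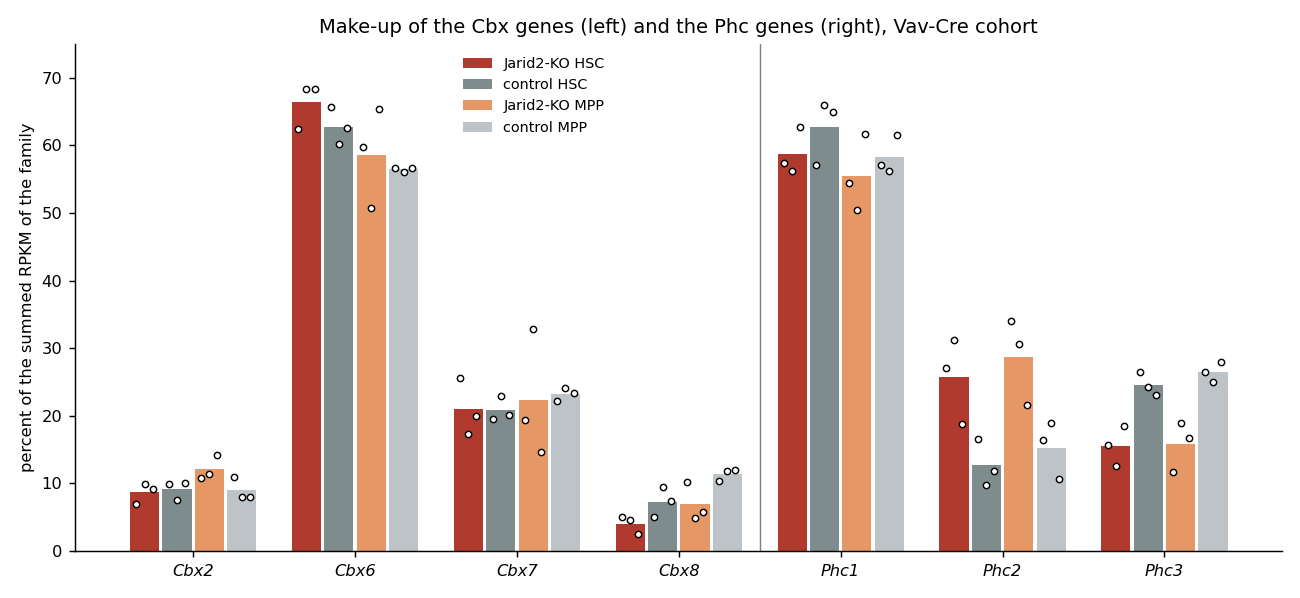
Share of each gene in the summed RPKM of its family (vertical axis, percent, from 0; the 4 Cbx genes left and the 3 Phc genes right of the line) in the Vav cohort, with bars at the mean of 3 libraries and circles for single libraries. Phc2 is higher and Phc3 lower in the Jarid2-KO groups without overlap in either cell type, while Phc1 stays between 50.4% and 66.0%.

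The rest of the Polycomb machinery was read from lists of named complexes. Of 25 other PRC1 genes listed, 24 could be tested. Of these 24 other PRC1 genes tested in the averaged Jarid2-KO comparison, 2 rose, 0 fell and 22 did not pass (median log2 0.02, against -0.00 for all genes), a count near the 11.7% of all genes that passed. Pcgf2, a RING-finger partner of canonical PRC1, rose by a log2 of 1.02 (SE 0.28, edgeR adjusted p = 0.0337). Yaf2, a subunit of variant PRC1, rose by 0.50 (SE 0.15, adjusted p = 0.0439). The catalytic genes Ring1 (0.64, adjusted p = 0.117) and Rnf2 (-0.14, adjusted p = 0.604) and Bmi1, a partner that mouse HSC need to self-renew (0.16, adjusted p = 0.660), did not pass. None of 12 PRC2 genes passed, with a median of 0.08 and values from -0.35 for Ezh2 and Mtf2 to 0.91 for Phf1. None of the 3 chromobox genes of the HP1 family, which read another histone mark, passed (Cbx1 -0.12, Cbx3 -0.78, Cbx5 0.01).

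Genes that remove or help to remove ubiquitin from histone H2A held calls in both directions, in a comparison in which 11.7% of all genes passed. Of 5 tested, Asxl1, a cofactor of the deubiquitinase Bap1, rose by 0.67 (SE 0.18, edgeR adjusted p = 0.0353). Its relative Asxl2 fell by 0.72 (SE 0.16, adjusted p = 0.0162), and the deubiquitinase Mysm1 fell by 0.83 (SE 0.25, adjusted p = 0.0455). Bap1 at 0.62 (adjusted p = 0.0537) and Usp16 at -0.02 did not pass. Of 12 genes known as PRC1 targets, 8 could be tested and none passed (median 0.06), with Hoxa9, a homeobox gene of stem cells, at -0.02 and Ebf1, a B cell factor, at 1.44 (adjusted p = 0.0564). None of these 5 lists held a gene past the threshold within HSC or within MPP alone, or in any Mx1 comparison. Hoxa9 was higher in MPP than in HSC in Jarid2-KO cells (log2 1.24, SE 0.20, edgeR adjusted p = 0.00921) and averaged over genotypes (0.95, SE 0.14, adjusted p = 0.00127).

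The Mx1 comparisons asked what Jak2V617F changes and what Jarid2 loss adds to it. No member passed any test. In HSC the mean CPM of Phc1 and Phc3 was higher in the double mutant than in control. For Phc1 the 2 double mutant HSC libraries stood far apart, at 11.9 and 58.9 CPM. With TMM scaling, on which the tests rest, Phc1 and Phc3 in HSC turned to the other side of control (log2 -0.24 and -0.15). Of all 19616 genes, the double mutant differed from Jak2V617F in 0% in HSC and 0% in MPP and in 0.449% averaged over both (88 genes, 23 higher and 65 lower), and from control in 0% in HSC and 0% in MPP. Jak2V617F differed from control in 0% in HSC and 0% in MPP. At an unadjusted p under 0.05, edgeR gave 1249 genes for double mutant against control in HSC and 924 in MPP, 919 for double mutant against Jak2V617F in HSC and 588 in MPP, and 299 for Jak2V617F against control in HSC and 264 in MPP. DESeq2 called 437, 234, 345, 80, 5 and 0 genes in the same order. With 2 libraries a group and a biological coefficient of variation of 0.786, against 0.337 in the Vav fit, these comparisons detect large differences only.

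Cbx6 and Cbx7, neighbours on chromosome 15, had the lowest adjusted p of the 7 genes for double mutant over control in HSC. Cbx6 stood at 41.7 and 41.8 CPM in double mutant HSC, against 13.9 and 35.0 in Jak2V617F HSC and 6.93 and 12.0 in control HSC. In MPP it stood at 55.8 and 37.1 CPM in the double mutant, against 32.1 and 29.8 in Jak2V617F and 13.1 and 33.3 in control. The 2 double mutant values lay above those of both other genotypes in each cell type on this scale. With TMM scaling the HSC groups overlapped, with 40.8 and 33.3 CPM in the double mutant, against 15.6 and 34.5 in Jak2V617F. The log2 fold change over control was 1.84 in HSC (SE 0.62, 95% interval 0.49 to 3.18; edgeR adjusted p = 0.466) and 0.85 in MPP (SE 0.61, adjusted p = 1.00). Over Jak2V617F it was 0.57 in HSC (SE 0.60), 0.52 in MPP (SE 0.60) and 0.54 averaged (SE 0.43, adjusted p = 1.00).

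Cbx7 stood at 11.5 and 16.3 CPM in double mutant HSC, against 6.80 and 13.5 in Jak2V617F HSC and 2.16 and 3.33 in control HSC, where 33 and 48 counts lie behind the values. In MPP it stood at 19.4 and 19.9 CPM in the double mutant, against 11.2 and 17.3 in Jak2V617F and 3.04 and 13.4 in control. Its log2 fold change in HSC was 2.00 for the double mutant over control (SE 0.84, edgeR adjusted p = 0.704) and 1.79 for Jak2V617F over control (SE 0.83, adjusted p = 1.00). Cbx2 stood at 7.86 and 9.86 CPM in double mutant HSC, against 1.24 and 7.01 in Jak2V617F HSC and 1.63 and 2.78 in control HSC, and in MPP the double mutant values of 1.71 and 15.8 CPM spanned all others. Cbx8 stood at 3.54 and 3.99 CPM in double mutant HSC, against 2.23 and 7.44 in Jak2V617F HSC and 1.05 and 0.764 in control HSC. In double mutant MPP it stood at 4.93 and 0.255 CPM, the second from 2 counts, against 4.77 and 2.69 in Jak2V617F MPP and 3.23 and 7.76 in control MPP.

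Phc2 stood at 47.0 and 27.7 CPM in double mutant HSC, against 17.7 and 37.0 in Jak2V617F HSC and 22.8 and 20.4 in control HSC. In MPP it stood at 59.9 and 28.8 CPM in the double mutant, against 34.3 and 37.4 in Jak2V617F and 13.9 and 42.4 in control. The groups overlapped except for double mutant over control in HSC (log2 0.49, SE 0.64, edgeR adjusted p = 0.808), and with TMM scaling they overlapped there too, with 45.9 and 22.1 CPM in double mutant HSC, against 27.3 and 21.1 in control HSC. Phc3 was the steadiest Mx1 member, between 32.2 and 58.6 CPM, with log2 fold changes from -0.17 to 0.23 in all 7 genotype comparisons. For double mutant over Jak2V617F, its averaged value of 0.06 had a 95% interval of -0.66 to 0.77, which still holds the -0.61 of the Vav cohort. Phc1 varied 8.37-fold over Mx1 libraries, against 1.26-fold over Vav libraries, with 58.9 CPM in double mutant HSC library 2 and 47.3 in control HSC library 1, against 7.04 to 27.8 in the other 10.

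**Figure D4:**
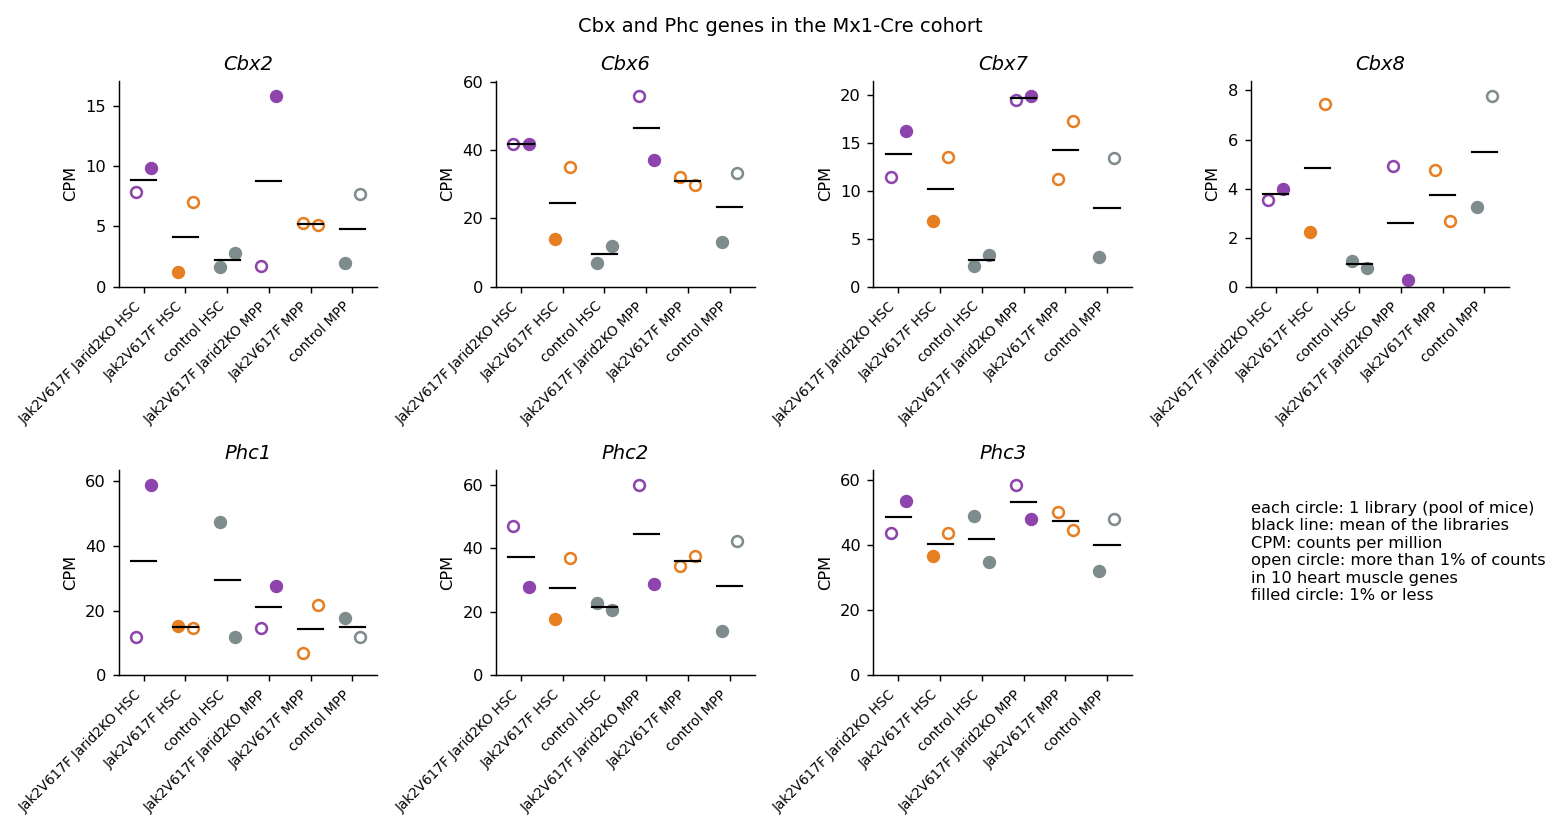
CPM (vertical axes, from 0, a separate scale for each gene) of the 7 genes in each Mx1 library, with the double mutant (purple), Jak2V617F (orange) and control (grey) from left to right in HSC and then in MPP, lines at group means and open circles for libraries with more than 1% of counts in 10 heart genes. Open circles lie above filled ones for Phc2 within each group that holds both, and the double mutant values of Cbx6 lie above the others in each cell type on this scale, though not in HSC with TMM scaling, where double mutant HSC 2 is at 33.3, against 34.5 CPM in Jak2V617F HSC 2.

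Heart muscle RNA and blood cell markers moved with several of these values. Libraries with more than 1% heart transcripts were double mutant HSC 1 and MPP 1, Jak2V617F HSC 2, MPP 1 and MPP 2 and control MPP 2, and Phc2 stood at 34.3 to 59.9 CPM in those 6, against 13.9 to 28.8 CPM in the other 6. Among libraries under 1%, Cbx6 stood at 41.8 CPM in double mutant HSC 2, against 13.9 in Jak2V617F HSC 1 and 6.93 and 12.0 in control HSC, and at 37.1 in double mutant MPP 2, against 13.1 in control MPP 1. Among those over 1% it stood at 41.7 CPM in double mutant HSC 1, against 35.0 in Jak2V617F HSC 2, and at 55.8 CPM in double mutant MPP 1, against 32.1 and 29.8 in Jak2V617F MPP and 33.3 in control MPP 2. With a term for the heart set, the log2 fold change of Cbx6 for double mutant over control in HSC was 1.44 (edgeR adjusted p = 0.0789), the lowest adjusted p of the 77 members' values fitted that way. Granulocyte-monocyte markers summed to 1380 to 5590 CPM in double mutant libraries, against 10784 to 22335 CPM in Jak2V617F and 9419 to 38328 CPM in control libraries. Slamf1, which encodes the sort marker CD150, stood at 30.8 and 124 CPM in double mutant HSC, against 12.7 and 5.04 in Jak2V617F HSC and 0.196 and 5.21 in control HSC, while Vav HSC held 57.4 to 95.5 CPM. The marker thus went against the HSC label in Mx1 control and Jak2V617F libraries, and its part in the members' differences was not tested.

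For MPP against HSC in the Mx1 cohort, 0% of genes passed in control cells (523 at an unadjusted p under 0.05, 3 called by DESeq2) and 0% averaged over the 3 genotypes (684 at an unadjusted p under 0.05, 0 called by DESeq2). The members' averaged log2 differences ran from -0.62 for Phc1 (SE 0.50) to 0.83 for Cbx7 (SE 0.47), with adjusted p of at least 0.741. For the difference of the Jak2V617F effect and that of the added Jarid2KO effect between MPP and HSC, 0% and 0% of genes passed, with 299 and 479 at an unadjusted p under 0.05 and 1 and 21 called by DESeq2. No member passed there, and the largest size was -2.89 for Cbx8 in the Jak2V617F effect (SE 1.86).

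Cbx6, Cbx7 and Phc2 varied together in both cohorts. Over the 12 Vav libraries, Pearson's r of log2 levels was 0.91 between Cbx2 and Cbx6, 0.83 between Cbx7 and Phc2, 0.82 between Cbx6 and Phc2 and 0.74 between Cbx6 and Cbx7, while Phc3 ran against Cbx6 (-0.72) and Phc2 (-0.52). Over the 12 Mx1 libraries Cbx6 and Cbx7 had an r of 0.94 and Cbx6 and Phc2 one of 0.80, but Phc3 ran with Cbx6 (0.61) and Phc2 (0.74). The linked pair Cbx2 and Cbx8 had 0.45 in Vav and 0.06 in Mx1 libraries. These values are descriptions over libraries that differ in genotype, cell type and depth.

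The genes most like each member over the Vav libraries, among 10077 with a mean of at least 5 CPM, were Grk6, a receptor kinase, and Gsk3a, a glycogen synthase kinase, for Phc2 (r = 0.98 for each). For Cbx6 they were Cyth3, an exchange factor of ARF proteins, and Tfap4, a transcription factor (0.97 for each). Tfap4 was also among the 2 nearest to Cbx2 (0.95), after Zfp362 (0.96). Krt7 and Zfp467 were nearest to Cbx7 (0.97 for each), Klf1, an erythroid factor, and Mutyh, a DNA repair enzyme, to Cbx8 (0.93 and 0.92), Dph7 and Pfkfb1 to Phc1 (0.88 and 0.83), and Dzip1 and Kmt2c, a histone H3 methyltransferase, to Phc3 (0.94 and 0.93). In the Mx1 libraries r was 0.74 for Cbx7 with Krt7, 0.75 for Phc2 with Gsk3a and -0.75 for Phc2 with Grk6, and between -0.60 and 0.69 for the rest. Each is the nearest or next nearest of 10077 genes searched over 12 libraries, and no test was made.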

How the data were processed

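RNA-seq tables of 24 libraries were read, and the 8 samples of H3K27me3 chromatin were not analysed here. Tools named in the submitters' processing notes, with no role given, are Partek 6.6, HTSeq 0.8.0, featureCounts 1.4.5 of Subread and STAR 2.0.4, and the build is mm10. Per the file headers, the deposited columns are raw counts per gene, CPM (counts scaled to the library total) and RPKM (CPM per kilobase of exon). The deposited CPM and RPKM were recomputed from the counts without difference beyond rounding. Exons of 14573 genes are listed differently in the 2 cohorts, though lengths are equal, so each cohort was fitted on its own. Of 41388 genes, 40254 have a symbol.

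Counts were fitted in edgeR 4.0.16 under R 4.3.3 (filterByExpr with a minimum count of 10, TMM, robust quasi-likelihood tests, Benjamini-Hochberg adjustment over all genes of a comparison, threshold 0.05), with 15818 genes and 8 residual degrees of freedom in the Vav fit and 19616 genes and 6 in the Mx1 fit. Each fit held all groups of its cohort. Standard errors are the fold change over the square root of F. The edgeR fits were also run on counts simulated from the fitted dispersions, with each library drawn independently. Such counts hold no shared pools, heart RNA differences or cell mixtures, and the outcome is not given here. Alternatives were DESeq2 1.42.0, limma-voom (limma 3.58.1) with quality weights, RLE scaling, no filter, a minimum of 20 counts, a replicate block, only the groups compared, each library left out, and for Mx1 a heart term or no heart genes. The sum of HSC and MPP libraries, the length classes and the promoter G and C classes were chosen after seeing the data.

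Each library is a pool of mice, and the p-values weigh the spread from library to library. For averages over HSC and MPP this is the spread between pools only if libraries of 1 number come from separate pools. The members and lists were chosen with earlier results of these data known. Named genes are the 7 members in every comparison, at most 4 genes of each other list that passed, and the 2 genes most like each member by Pearson's r of log2(CPM + 1) over the Vav libraries, and Jarid2. Other list genes, Slamf1, Apobec3 and Npcd were named outside it with their values in view.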

Additional observations from a re-analysis of the deposited data

How the results depend on the processing

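No called fold change of a member reversed under any alternative. Of 2527 members' values under alternatives, 2488 stayed on their side of the threshold, 20 passed it newly and 19 fell short of it. Most of these values, with the 1610 of the Mx1 cohort among them, had no call to lose. All 19 losses fell on the 3 members called in the averaged Jarid2-KO comparison. Leaving out 1 of 12 libraries ended the call of Cbx6 in 7 fits, of Phc3 in 9 and of Phc2 in 2. For Jarid2-KO against control averaged over HSC and MPP, 3 members passed; 5 did with no filter and 5 with DESeq2 (Cbx2 and Cbx7 added), 4 with limma-voom, and 0 to 5 with each library left out. None passed without control MPP 3 or without Jarid2-KO HSC 2, and 5 passed without Jarid2-KO MPP 3. Within HSC, where none passed, no filter, DESeq2 and limma-voom gave 1 each (Phc2). Within MPP, where none passed, no filter gave 2 (Cbx6 and Phc2), DESeq2 3 (these and Cbx2), and leaving out each library 0 to 4, with 4 without Jarid2-KO MPP 3. For MPP against HSC averaged over genotypes DESeq2 gave 1 (Cbx8). In the Mx1 cohort, 0 of 1610 members' values passed under 21 alternatives, the lowest adjusted p being 0.0789. The counts of all genes called shifted with the setting too, as given in the next paragraph. Whether the members gained calls beyond that general shift was not tested, nor was the cause of these shifts.

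For the averaged Jarid2-KO comparison, 1854 genes passed, against 2894 with no filter, 3101 with DESeq2, 3422 with limma-voom, 1185 with HSC and MPP libraries summed and 450 (without control MPP 3) to 3420 (without Jarid2-KO MPP 3) with each library left out. Within HSC it was 90, against 45 to 1419 under other settings and 14 to 837 with a library left out, and within MPP 150, against 19 to 1306 and 34 to 1512. MPP against HSC gave 185 in control (167 to 735), 83 in Jarid2-KO (23 to 563) and 544 averaged (461 to 1026), and double mutant over Jak2V617F averaged gave 88 (32 to 786, the highest with a heart term). Of 70 group levels, 5 moved by more than their SD with TMM-scaled CPM. The replicate block ended the call of Phc3 (adjusted p = 0.0516). Vav libraries of equal number and cell type deviated with correlations of -0.25 to 0.13 (median -0.11), against -0.11 to 0.26 (median 0.02) at unequal number. Those of equal number and genotype had -0.01 to 0.30 (median 0.08), against -0.20 to 0.20 (median -0.11) at unequal number. Within a genotype, 6 of 12 were nearest to their own number among libraries of the other cell type. Whether the numbers pair samples was not tested. Low counts limit Cbx8 and Cbx2 most.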
